A study of Citrus maxima with 6 samples.

Results

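Cs5g28720 is the sweet orange gene model that the study's annotation matches to gibberellin 20 oxidase 2 of rice, and it is described here in the ripe pericarp of 'Guanxi' pummelo. It is 1 of 29406 genes in the table of RPKM values (reads scaled to gene length and library size), and it was chosen by its identifier because earlier results of the same libraries had shown it lower in the mutant. WT was 'Guanxi' pummelo with its slightly yellow peel, and MT was an orange-pericarp bud mutant of that cultivar, which holds large amounts of β-carotene in the peel. Each genotype was sequenced as 3 biological replicates of ripe pericarp without treatment. MT traces back to 1 spontaneous mutation kept by grafting, the series' design text calls the samples pools without giving the number of fruits, and a single stage was sampled. Reads were aligned to sweet orange, a related species, and not to pummelo.

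Gibberellins are diterpenoid hormones, and their precursor geranylgeranyl diphosphate is also the precursor of carotenoids. Gibberellin 20-oxidases are soluble dioxygenases that use 2-oxoglutarate and iron and carry out the late oxidations that lead to the bioactive forms, while gibberellin 2-oxidases inactivate the hormone. Gibberellin applied to citrus fruit is known to delay the colour change of the peel. The name of Cs5g28720 rests on a Swiss-Prot match alone, and neither its protein sequence nor its enzyme activity was examined here.

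In the WT libraries 1, 2 and 3 the RPKM of Cs5g28720 stood at 6.18, 6.46 and 5.44, and in the corresponding MT libraries at 0.491, 0.368 and 0.464. All MT libraries were low, all WT libraries were at a medium level, and the lowest WT value was 11.1 times the highest MT value. By the study's limits of 3 and 15 RPKM the gene belonged to the medium class in each WT library and to the low class in each MT library. WT averaged 6.03 ± 0.525 (SD, n = 3) and MT averaged 0.441 ± 0.0647 (SD, n = 3), so that MT held 7.31% of the WT level, a 13.7-fold lower value. The log2 fold change, taken on log2(RPKM + 0.5) and relative to the median gene as are all those below, was -2.94 with a standard error of 0.20. The median gene itself was 0.15 higher in MT. Because the gene was selected for this contrast, its difference is given as a description and no p-value is attached to it. In bulk pericarp, fewer cells that express the gene and less RNA per cell cannot be told apart.

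**Figure D1:**
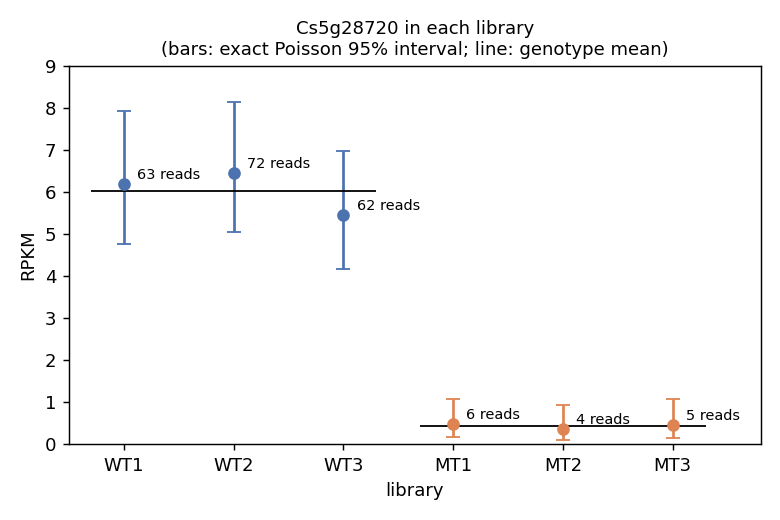
RPKM of Cs5g28720 (vertical axis, from 0) in each of the 6 libraries (horizontal axis). Points are libraries labelled with their recovered reads, bars are exact Poisson 95% intervals for counting error, and lines are genotype means; the WT points lie between 5.44 and 6.46 and the MT points between 0.368 and 0.491, and no WT interval meets an MT interval.

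Since 1 read adds a fixed amount to the RPKM of a gene in a given library, whole reads could be recovered from the values. Cs5g28720 had 63 reads in WT1, 72 in WT2 and 62 in WT3, against 6 in MT1, 4 in MT2 and 5 in MT3. At the WT rate, 73.6, 65.5 and 64.9 reads would have been counted in MT1, MT2 and MT3. In total 15 reads stood in MT where the WT rate gives 204. The libraries were of similar depth, with 9253681 to 11108186 reads behind the RPKM scale. Divided by these totals, the reads gave a WT to MT ratio of 13.6 (95% interval 8.05 to 24.8, exact, after Clopper and Pearson). This interval and the others on reads cover counting error only.

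The low level was shared by each MT library. MT1 held 8.14% of the WT mean, MT2 6.10% and MT3 7.70%. The ratio of the pooled WT reads to those of a single MT library was 12.3 for MT1 (exact 95% interval 5.54 to 33.8), 16.4 for MT2 (6.29 to 60.7) and 13.0 for MT3 (5.47 to 40.4), and the intervals overlap widely. Over the 9 pairs of a WT and an MT library the ratio ran from 11.1 to 17.6. Leaving out any 1 library kept the ratio of the means between 12.6 and 14.5.

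Within MT the highest library was 1.33 times the lowest, and within WT 1.19 times. The SD of log2(RPKM + 0.5) was 0.10 in MT and 0.12 in WT. The median SD over 16719 genes, those whose RPKM averaged 0.3 or more, was 0.26 in MT and 0.22 in WT. Every MT value of Cs5g28720 lay below the added 0.5, which narrows its spread on this scale. Its SD in MT is therefore not on equal terms with that of more abundant genes. Among the 578 genes with 10 to 20 reads in MT, whose median SD was 0.41, Cs5g28720 had the 32nd smallest. The variance of its reads over their mean was 0.2 in MT and 0.462 in WT, against a median of 1.4 in MT over the 578 genes. A mean of 5 reads carries a counting SD of 2.24 reads, more than the observed SD of 1 read, so at this depth unevenness among the MT libraries smaller than the counting error was not detectable.

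MT3 was the MT library nearest to WT, and MT2 the farthest, for most genes that were low in MT. Of the 896 genes with every MT library below every WT library, 5.36% of those tested, MT3 was the highest MT library in 61.3% and MT2 the lowest in 60.4%. In Cs5g28720, MT2 was also the lowest, but MT3 stood between MT1 and MT2, at 1.08 times their mean. With 6, 4 and 5 reads in MT1, MT2 and MT3, this order lies within counting error. A log2 fold change of -2 or lower relative to the median gene was found for 118 genes, 0.706% of those tested. The MT libraries lay below the WT libraries in 81 of the 118, and 62 of these had at least 10 reads in MT. In 58 of the 62 every MT library had reads, and the ratio of the highest to the lowest MT library had a median of 5.95, ranging from 1.02 to 209. Cs5g28720 had the third smallest ratio of these 58, 1.33. Smaller ratios were found only in Cs5g28750 (1.02) and Cs4g18090 (1.26), a match to the copper protein umecyanin. Cs5g28720 and Cs5g28750 had only 4 to 8 reads per MT library. Their small ratios lie within counting error and do not show that they were more even than the other genes.

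**Figure D2:**
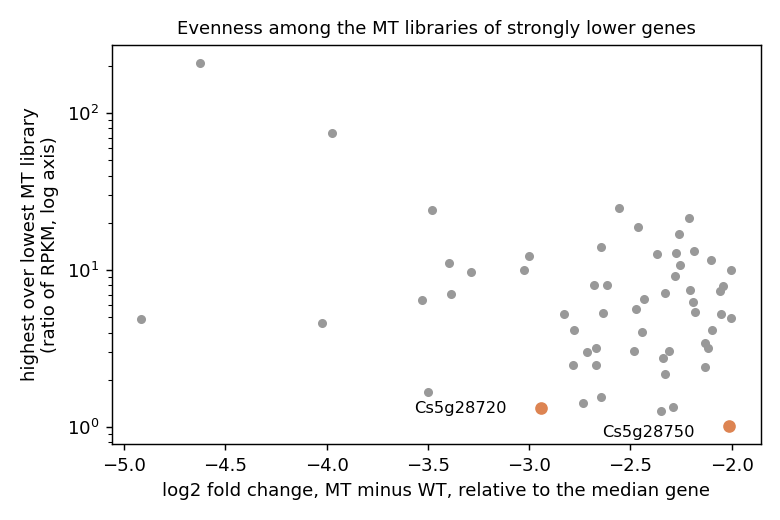
Ratio of the highest to the lowest MT library (vertical axis, logarithmic) against the log2 fold change relative to the median gene (horizontal axis) for 58 genes with a log2 fold change of -2 or lower, MT libraries below the WT libraries, at least 10 reads in MT and reads in every MT library. Each point is a gene; Cs5g28720 lies at 1.33 and Cs5g28750 at 1.02, near the lower edge, while the median is 5.95.

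Ranked from the lowest log2 fold change, Cs5g28720 was number 29 of the 16719 genes, in the lowest 0.173%. Without MT3 it was number 67, without WT2 number 44 and without MT2 number 17. By the ratio of the mean RPKM it was number 43 of 16701 genes with reads in WT. Among the 12044 genes that averaged 3 RPKM or more in WT it was number 18 by this ratio. By the gap between the lowest WT and the highest MT library on the log2 scale, 2.58, it was number 3 of 16719, behind Cs4g08370, a match to oligopeptide transporter 1, with a gap of 3.25, and Cs8g10300, with 2.83. The RPKM of Cs4g08370 was 20.2 to 41.2 in WT and 0.342 to 1.67 in MT. Cs8g10300 has no name in the sources used and was picked out after its values were seen. By the absolute difference in RPKM, which favours abundant genes, Cs5g28720 was only number 1591. Among the 4611 genes with a WT mean between 3 and 12 RPKM it had the 4th lowest log2 fold change.

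The 28 genes ahead of Cs5g28720 had log2 fold changes from -5.13 to -2.99, and each had a higher mean RPKM in WT. The value added before the log shrinks the changes of genes at low levels, so this order favours genes with higher WT levels. By the ratio of mean RPKM, Cs5g28720 was number 43 of 16701 genes. Among the 12044 genes averaging 3 RPKM or more in WT it was number 18. Some genes with a larger fall by this ratio therefore had lower WT levels than Cs5g28720. In 12 of the 28 an MT library overlapped the WT range, and in 6 at least 1 MT library had no read. Where the ratio of the highest to the lowest MT library could be formed, in 22 genes, it ran from 1.67 to 231 with a median of 39.3. That of Cs5g28720 was 1.33, but from 4 to 6 reads per MT library. This is within counting error, so its evenness was not ranked against theirs. MT3 was the highest MT library in 24 of the 28, and MT2 the lowest in 26. The genes just ahead were Cs9g16630 (-3.02), Cs5g13970 and Cs6g09960 (-2.99), and those just behind were Cs1g20080 (-2.92), Cs1g20300 (-2.88) and Cs5g06920 (-2.83), none of them with a name in the sources used. The RPKM of Cs6g09960 over MT1, MT2 and MT3 was 57.2, 2.81 and 416, and that of Cs1g20080 was 0.259, 0.129 and 11.0. Both overlapped WT in MT3, in contrast to Cs5g28720 beside them.

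**Figure D3:**
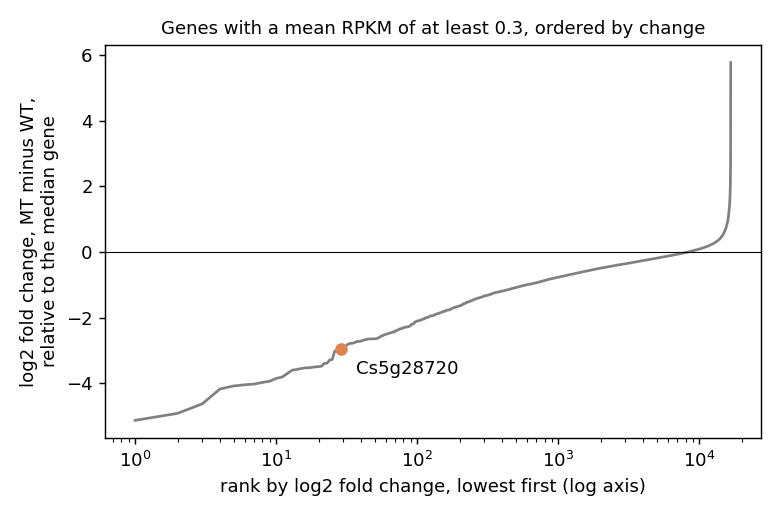
Log2 fold change of MT over WT with the median gene set to 0 (vertical axis) against rank from the lowest value (horizontal axis, logarithmic) for the 16719 genes tested. The line joins all genes and the point is Cs5g28720, at rank 29 and -2.94.

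The level of Cs5g28720 among all genes was moderate in WT. Of the genes with reads in a library, 45.4% lay below it in WT1, 51.7% in WT2 and 47.5% in WT3. In MT1, MT2 and MT3 the corresponding shares were 21.6%, 18.8% and 19.6%. The gene thus stood near the middle of the detected genes in each WT library and among the low ones in each MT library.

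The length behind the RPKM values of Cs5g28720 was 1101 bp, a multiple of 3. Among the 14523 genes with at least 100 reads, most lengths were not multiples of 3, so the gene models as a whole hold more than coding sequence. Of these genes 11, or 0.0757%, had this same length of 1101 bp, and one of them was Cs5g28750, which stands 3 identifiers after Cs5g28720. Sweet orange identifiers are numbered along a chromosome, here chromosome 5, but start and end positions were not looked up. No name for Cs5g28750 was found in the sources used, and whether its sequence is related to that of Cs5g28720 was not tested. Only unambiguous reads were counted, so reads that fit 2 similar genes equally well are missing from both.

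Cs5g28750 had an RPKM of 4.61 in WT1, 3.32 in WT2 and 3.25 in WT3, and of 0.654, 0.643 and 0.650 in MT1, MT2 and MT3. These values rest on 47, 37 and 37 reads in WT and on 8, 7 and 7 in MT. The WT libraries did not overlap the MT libraries, and the MT values were nearly equal. With 7 or 8 reads in each MT library, equality this close lies within counting error and does not show an even level. WT averaged 3.73 ± 0.769 (SD, n = 3) and MT averaged 0.649 ± 0.00538 (SD, n = 3), and the ratio of reads per depth was 5.69 (exact 95% interval 3.59 to 9.42). The log2 fold change was -2.01 with a standard error of 0.22, and the adjusted p of 0.0532 from limma did not pass 0.05. Over the alternative fits this p ran from 0.0224, without MT3, to 0.215. It was number 114 by log2 fold change and number 8 of 16718 in likeness to Cs5g28720.

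The other identifiers nearby differed less between the genotypes. Cs5g28710, directly before Cs5g28720, had an RPKM of 574, 904 and 474 in WT and of 424, 419 and 452 in MT, and limma gave a log2 fold change of -0.69 and an adjusted p of 0.278. Cs5g28730, directly after it, had 3.98, 5.93 and 2.90 in WT and 2.27, 2.76 and 1.95 in MT, with -0.86 and an adjusted p of 0.201. In both the MT libraries lay below WT, by a narrow margin. Cs5g28700 had 18.8 to 25.3 in WT and 28.1 to 35.8 in MT (log2 fold change 0.35, adjusted p = 0.157 from limma). Cs5g28670, Cs5g28680 and Cs5g28770 had log2 fold changes of 0.01, 0.22 and 0.05, with overlapping libraries. Cs5g28690 and Cs5g28740 had 6 and 3 reads in the 6 libraries together and Cs5g28760 had 0, and these were not tested.

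**Figure D4:**
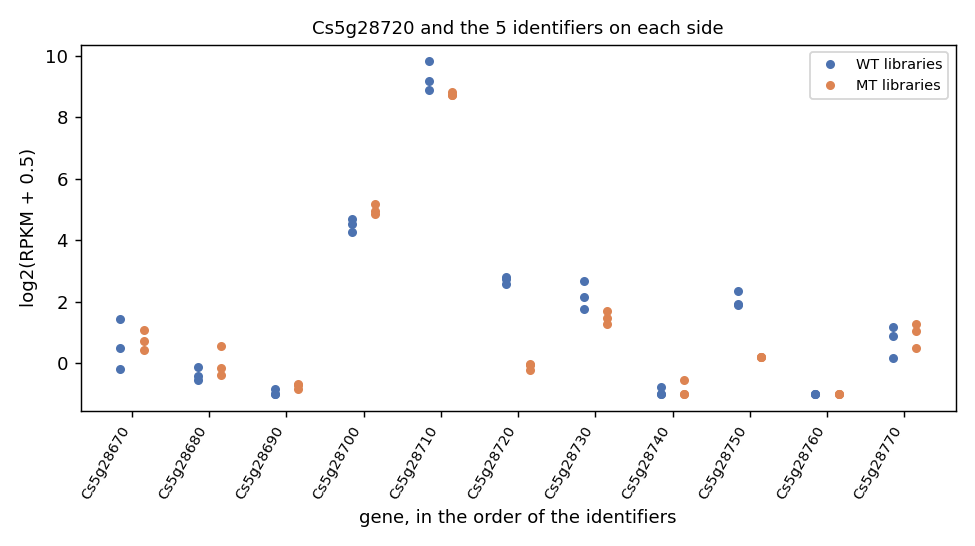
Log2(RPKM + 0.5) (vertical axis) of Cs5g28720 and the 5 identifiers on each side, in identifier order (horizontal axis). Each point is a library, blue for WT and orange for MT; Cs5g28720 and Cs5g28750 show the widest separation, with RPKM of 5.44 to 6.46 against 0.368 to 0.491 and of 3.25 to 4.61 against 0.643 to 0.654.

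The 5 genes closest to Cs5g28720 in their pattern over the 6 libraries were taken by the Euclidean distance of the log2 values after subtracting each gene's mean. The median distance over all 16718 other genes was 3.66. Closest was Cs2g16260 (distance 0.533), a match to an isoflavone reductase homolog, a family of reductases of phenolic metabolism. It was far more abundant, with an RPKM of 2347, 3265 and 2133 in WT and of 532, 378 and 375 in MT. Cs9g06130 (0.961) matches MUTE, a transcription factor of the stomatal lineage in Arabidopsis, and had 21.2 to 25.0 in WT and 2.25 to 5.62 in MT. Cs3g23440 (1.01), a lipase match, had 27.3 to 40.6 in WT and 6.45 to 8.69 in MT. Cs5g22980 (1.05), a match to (R)-limonene synthase 1, which makes the main terpene of citrus peel oil, had 1.68 to 4.03 in WT and 0.0494 to 0.280 in MT. Cs4g18090 (1.16), the umecyanin match, had 55.1 to 117 in WT and 15.2 to 19.2 in MT. All of these were lower in every MT library than in every WT library, which follows from how they were chosen, and the likeness says nothing of shared control.

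A further gibberellin gene could be named, Cs7g14940, a match to gibberellin 2-beta-dioxygenase 8, an enzyme that inactivates gibberellins in Arabidopsis. Its RPKM was 5.08, 6.53 and 5.53 in WT1, WT2 and WT3, close to that of Cs5g28720 in the same libraries. In MT1, MT2 and MT3 it was 1.55, 0.772 and 2.53. Every MT library was below every WT library, but MT3 was 3.28 times MT2. Its fold change (log2) was -1.78 with a standard error of 0.33 and an adjusted p of 0.0896 from limma. Thus the matches to a synthesis and to an inactivation enzyme of the same hormone both had lower values in MT, with the larger difference in Cs5g28720. Its 4 to 6 reads per MT library are too few to compare the evenness of the 2 genes. Whether the 2 differences are unequal was not tested.

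Hormone genes were listed from the study's own table of genes that differ between MT and WT, so their direction is no independent evidence. The study called the genes of that table with DESeq, a test on read counts, at an adjusted p under 0.05. The limma fit on RPKM is another test, and its calls are not set against those of the study. The list holds 10 genes, Cs5g28720 among them. In limma, 3 of the 16719 genes passed an adjusted p of 0.05 as lower in MT (0.0179%) and 3 as higher (0.0179%), 0.0359% in all. Under median ratio scaling the split was 7 lower and 4 higher, and under quantile normalization 8 and 4. Among the 3 lower genes is Cs5g28720, from which nothing is read here because this contrast chose it, and the others were Cs4g08370 (log2 fold change -4.92) and Cs3g23440 (-2.29), both with an adjusted p of 0.0383. Cs5g28720 is left out of the counts of hormone genes that follow. In limma, 0 of the other 9 hormone genes passed, with adjusted p from 0.0532 to 0.120, while all 9 had an unadjusted p under 0.05, as had 21.8% of all genes tested. Their libraries did not overlap between genotypes in 9 of 9, which holds for 28.6% of all genes (5.36% lower and 23.3% higher), with 4 lower and 5 higher in MT and a median log2 fold change of 1.20. Without MT3, limma called 9 of the 9, beside 5.16% of all genes, and without WT1, WT2 or WT3, and in limma voom, it called 0 genes of the whole table. None of the 10 changed direction under the rescaled fits. The smallest change among them was 1.20 in size (Cs8g18860), while the median gene stood at only 0.149 before scaling. Another outcome was therefore hardly possible.

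Among the genes of other hormones with lower values in MT, Cs6g19380, a match to abscisic acid 8'-hydroxylase 1, which breaks down abscisic acid, had 135 to 175 RPKM in WT and 69.4 to 77.0 in MT (log2 fold change -1.23, adjusted p = 0.0532 from limma). It was the most even of the lower hormone genes, with MT libraries within 1.11 times each other. For Cs1g22140, a match to GH3.1, which conjugates auxin to amino acids, the RPKM was 70.8 to 124 in WT and 8.83 to 49.8 in MT (-2.47). For Cs1g21210, the 1-aminocyclopropane-1-carboxylate synthase of ethylene synthesis, it was 79.8 to 163 in WT and 12.4 to 51.4 in MT (-2.09). In both of these MT3 was the highest MT library. In Cs5g28720 the order of the MT libraries lies within counting error and cannot be set against this.

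Higher in MT were 5 hormone genes. Cs9g08100, a match to auxin-induced protein 22B, a repressor of auxin signalling, had 0.206 to 1.01 RPKM in WT and 3.38 to 8.64 in MT, a log2 fold change of 2.23. Cs1g24710, a match to a cytochrome P450 of brassinosteroid synthesis, had 0.103 to 0.231 and 1.11 to 2.92 (1.67), from 9 reads in WT. Cs8g17390 (RAP2-7) had 5.60 to 8.98 and 16.4 to 27.8 (1.46), Cs8g16930 (auxin response factor 4) 0.535 to 0.945 and 1.86 to 4.08 (1.35), and Cs8g18860 (ARR2, a cytokinin response regulator) 29 to 30 reads per WT library and 98 to 104 per MT library (1.20). On log2(RPKM + 0.5), the largest difference in size on the list, in either direction, was that of Cs5g28720, the gene chosen for this contrast. The added 0.5 shrinks the changes of genes at low levels. By the ratio of mean RPKM, Cs1g24710 was 11.8 times and Cs9g08100 8.90 times higher in MT. Cs5g28720 was 13.7 times lower, and its interval on reads, 8.05 to 24.8, covers both. Whether these sizes differ was not tested.

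**Figure D5:**
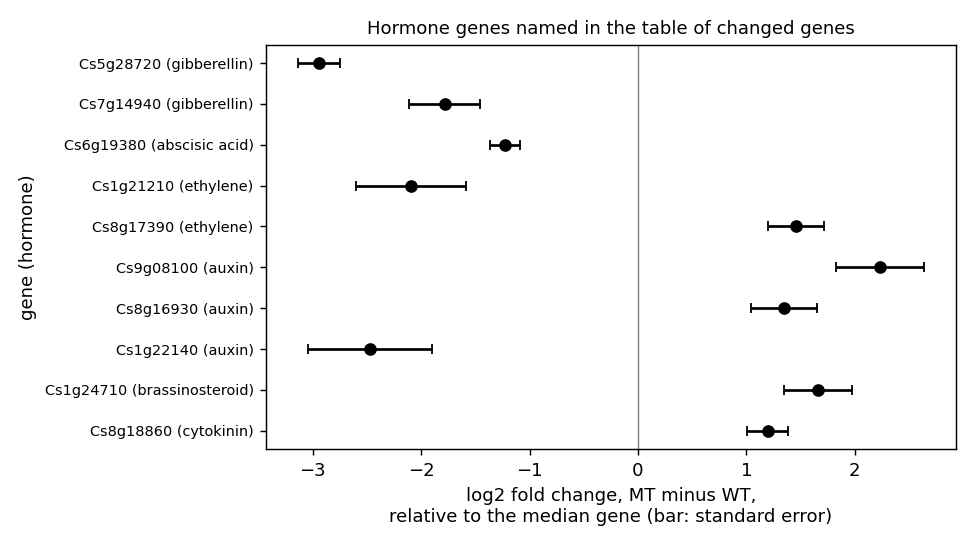
Log2 fold change of MT over WT with the median gene set to 0 (horizontal axis) of the 10 hormone genes (vertical axis, with the hormone in parentheses). Points are fold changes and bars standard errors of the limma fit on 3 libraries per genotype; Cs5g28720 lies farthest from 0, at -2.94.

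Of 8 genes listed as markers of flavedo and epidermis, stomata, vascular tissue or seed, 1 passed an adjusted p of 0.05 in limma. Of all genes tested 0.0359% passed. The other 7 markers had adjusted p from 0.0532 to 0.240. Of 4 genes of flavedo and epidermis, 3 had every MT library below every WT library and 1 rose, with every MT library above. Of all genes tested, 5.36% lay below and 23.3% above in this way. The summed RPKM was 2416 to 3173 in WT and 220 to 1963 in MT, set mostly by Cs9g17750 and Cs9g17800, matches to the cuticle acyltransferase DCR, with 97.4 and 97.3 in MT2. The one that rose was Cs3g09300, a match to the epidermal factor HDG5, with 1.93 to 2.37 in WT and 12.7 to 25.3 in MT (log2 fold change 2.64, adjusted p = 0.0383 from limma, and 0 genes called without WT1, WT2 or WT3). The limonene synthase match was listed as a marker of the oil-bearing outer peel by its name alone, and where it is expressed was not tested. It was low, with 4.03, 1.68 and 2.76 RPKM in WT and 0.0494, 0.0555 and 0.280 in MT (adjusted p = 0.0540 from limma). Its MT level was 4.55% of WT from 7 reads, against 7.31% for Cs5g28720. The 2 stomatal genes summed to 21.2 to 25.0 in WT and 3.26 to 6.19 in MT, but they differed in opposite directions. The MUTE match had the lower values in MT given above (log2 fold change -2.67, adjusted p = 0.0532 from limma). EPFL9 (Cs7g16890), a match to a peptide that promotes stomata in Arabidopsis, had higher values in MT, with 0 reads in every WT library and 10, 14 and 5 in MT1, MT2 and MT3 (adjusted p = 0.0763 from limma). The xylem serine proteinase match (orange1.1t00281) had 10.8 to 18.5 and 4.63 to 9.35, and the seed storage protein match Cs3g04540 (glycinin G3) 11.7 to 25.1 and 0.00 to 2.03. All 8 came from the study's table of changed genes and none is neutral to the contrast. Their part in the low level of Cs5g28720 was not tested.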

How the data were processed

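RNA from ripe pericarp was sequenced in 6 libraries, 3 of WT and 3 of MT, as 100 bp single-end reads. The deposited values are RPKM, which the authors computed from unambiguous, uniquely mapped reads after alignment with TopHat to the sweet orange genome. The submitters' processing notes name Bowtie2 2.1.0. The read counter and the genome version are not given in the sources used here, and no scaling between libraries is described. All 6 columns were used (0 left out). Library totals and gene lengths were recovered from the steps of the RPKM values, and 100% of the 118925 values above 0 were whole reads within 0.005.

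Genes averaging 0.3 RPKM or more (16719) entered limma 3.58.1 (R 4.3.3) on log2(RPKM + 0.5), MT against WT. The eBayes step allowed for an intensity trend, without a block, and used Benjamini-Hochberg adjustment at 0.05. Log2 fold changes are relative to the median gene, while standard errors and p-values are those of the fit. Nothing in the labels says that the replicates came from separate trees, so p-values measure the spread between these samples. Other steps used Python 3.11.15, numpy 2.4.6, scipy 1.17.1 and pandas 2.3.3. The procedure was run on simulated data whose spread between replicates was taken from the WT libraries alone, not from MT. The spread was wider in MT (median SD 0.26 against 0.22 in WT). The simulation therefore does not cover MT, and nothing is claimed from it here.

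Named were Cs5g28720, 10 hormone genes, genes past the threshold that were lower in MT, the 3 genes on either side in rank, the 5 most alike in pattern, and 5 identifiers on each side. The listed cell type markers were named too, as was Cs8g10300, which was picked out after its values were seen. The gene and lists were chosen with earlier results of these data known. Fold changes, p-values and read means in the study's own gene table were not used. Alternatives were the pseudocount, filter, scaling, limma voom, eBayes without trend, a replicate block and leaving out each library. Sequences of the gene were not analysed here.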

Additional observations from a re-analysis of the deposited data

How the results depend on the processing

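Cs5g28720 was lower in MT under each alternative. Its log2 fold change of -2.94 moved by more than the SD between replicates only with the low-level handling, to -2.42 (pseudocount 1), -3.67 (pseudocount 0.1) and -3.81 (limma voom), and ran from -3.01 to -2.85 with each library left out. Its rank of 29 became 45 (pseudocount 1) and 47 (limma voom), and ran from 17 (without MT2) to 67 (without MT3). The 15 reads in MT limit these values.

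Counts of called genes were less stable. Lower genes (3) became 5 with a pseudocount of 0.1 or a mean RPKM of at least 3, 7 with the median ratio or without the intensity trend, 8 with quantile normalization and 0 in limma voom (3582 genes at an unadjusted p of 0.05), and ran from 0 to 314 over the libraries left out. Higher genes (3) became 5 with a pseudocount of 0.1, 8 without the trend and 0 in limma voom, and ran from 0 to 549. Called hormone genes are counted here with Cs5g28720, which the contrast chose and which was the 1 called. They became 2 without the trend (Cs8g18860 besides it) and 0 in limma voom, and ran from 0 to 10, of which 9 were others. The 0 counts were those without WT1, WT2 or WT3 and the highest those without MT3. The share of lower genes among called genes was 3 of 6 before and 7 of 11 after scaling by the median ratio.

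With a replicate block, 31 genes were lower and 91 higher, and Cs9g08100 was called among the other hormone genes. The deviations of same-numbered libraries correlated at -0.046, 0.193 and 0.158. Those of the other pairs ran from -0.286 (WT2 with MT3) to 0.157 (WT1 with MT3). These values do not settle whether the numbers pair the libraries, and the main fit used no block.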
